A study of Caenorhabditis elegans with 2 samples.

Results

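This report describes where SOMI-1, a zinc finger protein, was found at 10 genes that make or use microRNAs in the nematode Caenorhabditis elegans. The genes were chosen by name from the 19973 protein-coding genes annotated on the nuclear chromosomes. Of the 10, 3 encode processing enzymes or their partner (drsh-1, pash-1 and dcr-1), 2 encode Argonautes (alg-1 and alg-2) and 5 encode cofactors of silencing (nhl-2, ain-1, ain-2, vig-1 and cgh-1). SOMI-1 was tagged with EGFP, together with TY1 and 3xFLAG tags, in the integrated transgene wgIs752 of strain OP752. That strain carries unc-119(tm4063), and the transgene restores unc-119. Whole young adults of mixed sex, 65.5 hours old after synchronisation by starving hatchlings, were used for chromatin immunoprecipitation against GFP and sequencing (ChIP-seq). There was 1 group, with 2 biological replicates and no other condition, and therefore nothing to compare a condition with. Both replicates came from the same transgenic strain, and whole animals mix all tissues, so a peak cannot be given to a cell type.

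MicroRNAs are cut from hairpin transcripts, first in the nucleus by Drosha with its partner Pasha and then in the cytoplasm by Dicer. An Argonaute protein holds the mature microRNA and finds messenger RNAs by base pairing. GW182-family proteins, which in the worm are AIN-1 and AIN-2, bind the Argonaute and bring in factors that repress translation and shorten the poly(A) tail. SOMI-1 was named for its role in worms that overexpress a microRNA.

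Peaks came from 4 lists deposited by the authors. Replicate 1 had 29600 peaks and replicate 2 had 26067, a joint call on both had 26266, and the thresholded list kept 1667 peaks of the joint call. Each peak has a summit position and a signal, both the authors' own, and the signal has no stated unit. Signals were ranked within a list, with rank 1 the strongest. A promoter window ran from 1000 bp upstream to 200 bp downstream of any annotated 5′ end. Many worm transcripts are trans-spliced, so an annotated 5′ end need not be where transcription starts. The members were chosen with earlier results of these data known, so their counts are descriptions and no test is given.

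The sequences under the 5 thresholded promoter summits are shown first, because shared letters among them are described after the peak values. Each is the summit base with the 50 bases to either side, from the plus strand of the RefSeq copy of WBcel235. Capitals mark ACGCAG, read on either strand (CTGCGT where it lies on the minus strand).
nhl-2, chrIII:4899872-4899972: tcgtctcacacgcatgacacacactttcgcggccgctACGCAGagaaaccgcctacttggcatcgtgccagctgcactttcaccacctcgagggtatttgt
ain-1, farther summit, chrX:16612465-16612565: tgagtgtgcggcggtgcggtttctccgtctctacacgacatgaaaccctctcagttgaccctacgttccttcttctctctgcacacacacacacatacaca
ain-1, nearer summit, chrX:16612667-16612767: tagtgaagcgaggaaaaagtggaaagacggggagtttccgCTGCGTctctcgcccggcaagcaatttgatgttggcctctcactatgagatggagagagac
vig-1, chrII:1320587-1320687: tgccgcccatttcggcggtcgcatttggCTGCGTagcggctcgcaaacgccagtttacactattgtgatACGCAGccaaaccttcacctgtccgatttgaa
cgh-1, chrIII:7498572-7498672: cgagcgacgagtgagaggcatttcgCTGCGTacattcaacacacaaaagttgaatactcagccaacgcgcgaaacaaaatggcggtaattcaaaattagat

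Thresholded peaks stood in the promoter windows of cofactor genes, and none stood in those of the processing or Argonaute genes. Of the 5 cofactors, 4 had a thresholded summit in the window, namely nhl-2, ain-1, vig-1 and cgh-1, while ain-2 had none. The processing genes had 0 of 3 and the Argonaute genes 0 of 2. In all, 4 of 10 genes had such a summit, where 4.34% of all protein-coding genes had one. Against that share, the counts of 0 in the processing and Argonaute genes are near the background. Classes of 2 to 5 genes are too small for a test of the contrast between them, and none was made. The contrast also rests on peaks far upstream, since 3 of the 4 genes had their summit 734 to 936 bp from the 5′ end and only vig-1 had one within 500 bp.

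**Figure D1:**
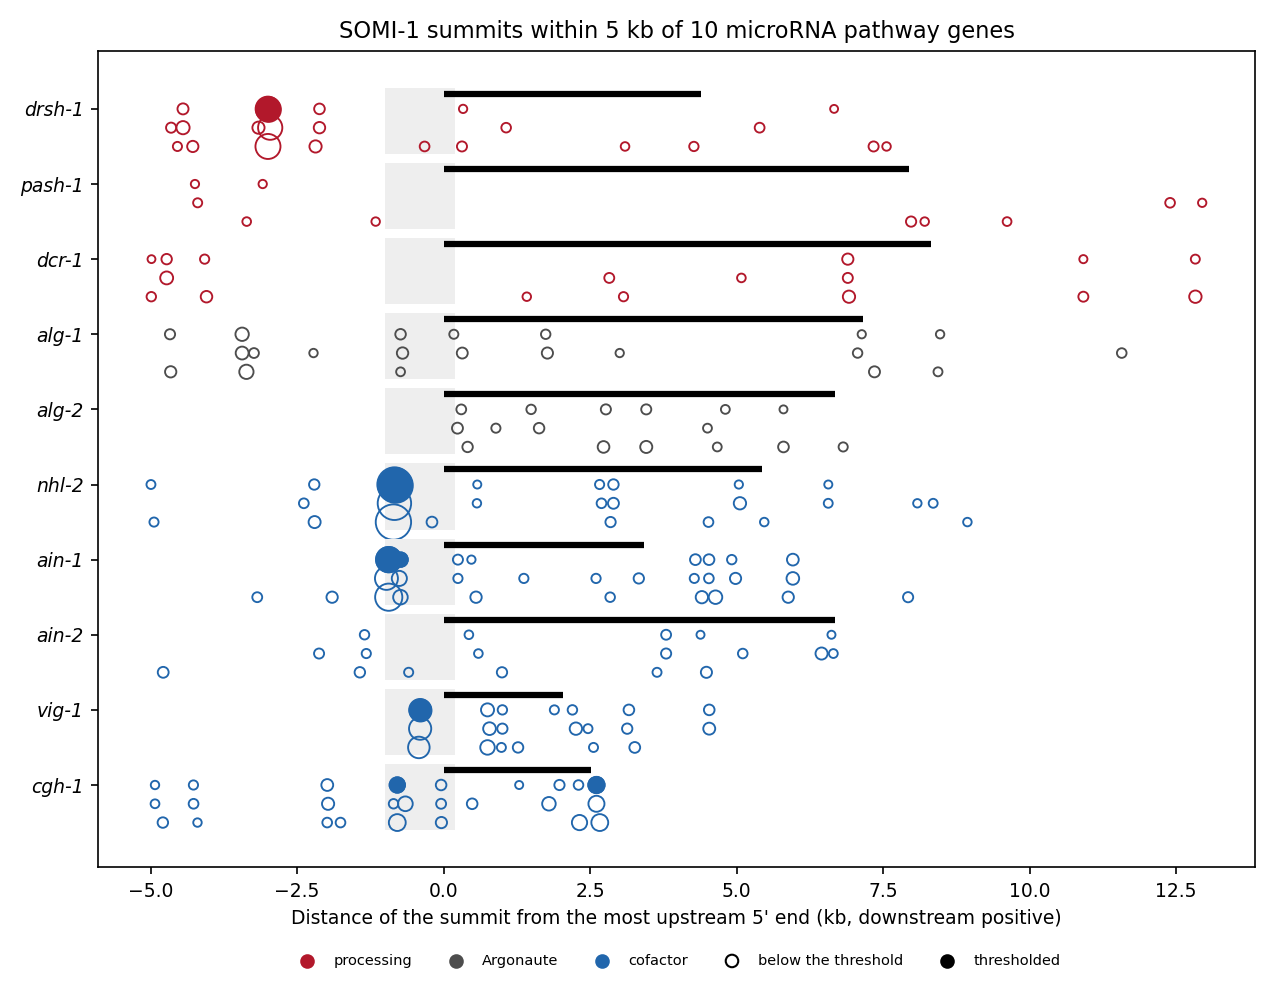
Summits within 5000 bp of each gene, as distance in kb from its most upstream annotated 5′ end, with the black bar for the gene and grey for the promoter window of that end. For each gene the rows from top to bottom are the joint list, replicate 1 and replicate 2; circle area follows the signal (the joint list drawn on a smaller scale), and filled circles are thresholded. The filled circles in the grey windows belong to nhl-2, ain-1, vig-1 and cgh-1, and those of drsh-1 at 2998 bp upstream and of cgh-1 past its 3′ end lie outside.

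The gene nhl-2 (WBGene00003598; ce11 chromosome III, 4893658 to 4899085, minus strand) had the strongest peak of the 10 genes. It encodes a TRIM-NHL protein that acts with the microRNA-loaded Argonaute complex. The peak ran from 4899789 to 4900072, with a summit at 4899922 that lay 837 bp upstream of the only annotated 5′ end. Its signal was 257.5 in replicate 1 and 288.1 in replicate 2, and 545.6 in the joint list. It ranked 8 in replicate 1, 7 in replicate 2 and 7 in the joint list, and the replicates' summits were 17 bp apart. Both replicates thus placed it among their strongest peaks.

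The peak of nhl-2 was shared. It lay in the 1422 bp between nhl-2 and tag-340, which are transcribed away from each other, and its summit was nearer to tag-340 (586 bp) than to nhl-2. The summit also lay inside F26F4.14, an annotated non-coding RNA gene of the minus strand, 28 bp from its 5′ end. Replicate 2 alone had a further weak summit 198 bp upstream of nhl-2, with a signal of 26.8 at rank 8422. The body of nhl-2 held 4 joint summits, of which the strongest, in a coding exon, had a signal of 50.5 and ranked 6768 of 26266.

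At ain-1 (WBGene00015547; chromosome X, 16613451 to 16616871, plus strand) a pair of overlapping peaks stood upstream, and both replicates resolved them. AIN-1 is a GW182-family partner of the microRNA Argonautes. The farther summit, 936 bp upstream, had a signal of 121.5 in replicate 1 and 170.3 in replicate 2, with 292.5 at rank 86 in the joint list. The nearer summit, 734 bp upstream, had 52.4 in replicate 1 and 48.96 in replicate 2, with 94.5 at rank 1547 in the joint list. The farther one was thus 1.4 times as high in replicate 2 as in replicate 1, while the nearer one was at 0.933 times. In replicate 1 the farther summit lay 975 bp upstream, close to the edge of the window. No other protein-coding gene had these summits in its window, and F59C12.3, transcribed away from ain-1, began 2991 bp from the farther one.

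Weaker peaks followed downstream of ain-1. The joint list had 4 summits past its 3′ end, with signals from 41.0 to 63.9, and 3 of them lay within the window of an annotated tRNA gene. The 2 summits in an intron of ain-1 had signals of 46.6 and 31.8.

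The gene vig-1 (WBGene00006924; chromosome II, 1321037 to 1323073, plus strand) had the promoter peak closest to a 5′ end among the thresholded ones. VIG-1 is the worm counterpart of a protein first found in the RNA-induced silencing complex of Drosophila. The peak ran from 1320427 to 1320846, with its summit 400 bp upstream. Its signal was 113.6 in replicate 1 and 106.8 in replicate 2, at ranks 185 and 242, and 219.7 in the joint list. The replicates' summits were 22 bp apart. No other protein-coding gene had this summit in its window, but the piRNA gene 21ur-13751 began 96 bp from it. The summit lay in the 597 bp between vig-1 and the end of fcho-1, its upstream neighbour on the same strand. In a coding exon of vig-1 a joint summit had a signal of 78.3 at rank 2298, below the lowest thresholded signal of 91.0. It was present in both replicates, with 37.2 and 48.6.

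The gene cgh-1 (WBGene00000479; chromosome III, 7495320 to 7497832, minus strand) had thresholded peaks on both sides, and its thresholded promoter peak was weaker than the strongest one of each of the other cofactor genes that had one. CGH-1 is a DEAD-box RNA helicase of the DDX6 family, found in P granules and in cytoplasmic bodies with decapping factors. The upstream summit lay 790 bp from the 5′ end, with a signal of 49.8 in replicate 1 and 65.5 in replicate 2, and 106.7 at rank 1199 in the joint list. The summits of the strongest replicate peaks were 138 bp apart there, above the 90th percentile over all thresholded summits. Replicate 1 also had a weaker peak holding the joint summit, with a signal of 20.8 and a summit 854 bp upstream. The joint summit lay in the 915 bp between cgh-1 and C07H6.9, its upstream neighbour on the same strand. It was nearer to the 3′ end of C07H6.9 than to the 5′ end of cgh-1. It was 716 bp from the 5′ end of C07H6.9, inside neither that gene's window nor the window of another protein-coding gene.

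The stronger peak of cgh-1 was at its other end. That summit lay 97 bp past the annotated 3′ end, inside the non-coding RNA gene C07H6.15 and 8 bp from its 5′ end. Its signal was 59.2 in replicate 1 and 65.5 in replicate 2, and 120.3 at rank 894 in the joint list. A weaker summit lay 42 bp upstream of cgh-1 itself, with 22.7 in replicate 1, 29.2 in replicate 2 and 51.7 at rank 6339 in the joint list. It was the summit closest to an annotated 5′ end in the joint list for any of the 10 genes.

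**Figure D2:**
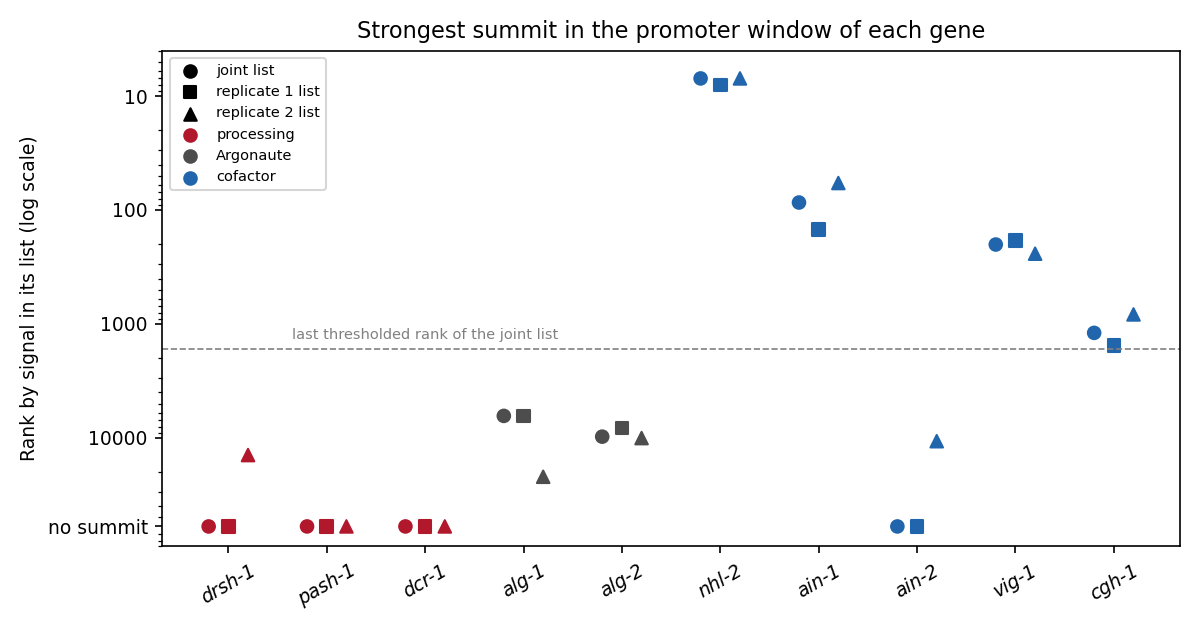
Rank by signal of the strongest summit in each gene's promoter window, in the joint list and in each replicate's list (log axis, strongest at the top; points at the bottom mark genes with no summit there). The values for nhl-2, ain-1, vig-1 and cgh-1 lie above the dashed line at rank 1667, and those of alg-1 and alg-2 lie at 6406 and below.

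The fifth cofactor, ain-2 (WBGene00015007; chromosome I, 4653467 to 4660153, plus strand), had no thresholded summit within 5000 bp. AIN-2 is the second GW182-family protein of the worm. It had 6 annotated 5′ ends and therefore 2468 bp of window, yet the joint list and replicate 1 had no summit there. Replicate 2 had 2, with signals of 19.2 and 24.5 at ranks 19169 and 10712. The first lay within ptps-1, 26 bp from that gene's 5′ end. The nearest thresholded summit was 44145 bp away, farther than for 62.4% of protein-coding genes, and its strongest joint summit within 5000 bp, in a coding exon, had a signal of 45.3. The GW182 genes ain-1 and ain-2 thus had top joint ranks within 5000 bp of 86 and 9225.

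Both Argonaute genes had promoter summits that stayed below the threshold. They encode closely related Argonautes that carry most microRNAs in the worm. At alg-1 (WBGene00000105; chromosome X, 13949110 to 13956261, plus strand) the joint list had 3 summits in the window, at 734 bp upstream of the first 5′ end, 175 bp inside it and 409 bp upstream of an internal one. The first had a signal of 30.02 in replicate 1 and 18.0 in replicate 2, and 51.5 at rank 6422 in the joint list, so replicate 1 was 1.67 times replicate 2. The others had 27.7 and 28.8 in replicate 1 and no peak at the summit in replicate 2. No other protein-coding gene had any of these joint summits in its window. Those 734 bp upstream and 175 bp inside lay in the window of the small nucleolar RNA gene K02B9.10, and the latter lay inside that gene. The strongest peak near alg-1 lay 3438 bp upstream, with 38.2 in replicate 1, 46.9 in replicate 2 and 82.3 at rank 2063 in the joint list. It lay in the window of no protein-coding gene, and the nearest 5′ end of a protein-coding gene was that of alg-1. It did lie in the window of the non-coding RNA gene K02B9.6, and in replicate 2 the summit was inside that gene.

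At alg-2 (WBGene00000106; chromosome II, 873212 to 879885, plus strand) the joint list had a single promoter summit, inside an intron. It lay 302 bp downstream of the first annotated 5′ end and counted because it was 646 bp upstream of the second. Its signal was 27.6 in replicate 1, 25.1 in replicate 2 and 44.2 at rank 9772 in the joint list, but the replicates' summits were 173 bp apart. This joint summit also lay in the window of the non-coding RNA gene T07D3.12, but in that of no other protein-coding gene. All 6 joint summits near alg-2 lay inside the gene, with signals from 29.5 to 47.1. No thresholded summit was near: the closest, which was the peak of vig-1 on the same chromosome, stood 446477 bp away. Of all protein-coding genes, 99.8% had one nearer.

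The processing genes had no summit in their promoter windows in the joint list. Both drsh-1 and pash-1 start close behind a gene on the same strand, tba-1 with a gap of 56 bp and T22A3.6 with a gap of 183 bp, while dcr-1 starts 347 bp from apc-2, which is transcribed the other way. The drsh-1 gene (WBGene00009163; chromosome I, 9781324 to 9785724, minus strand) encodes Drosha, which makes the first cut in the nucleus. The one thresholded peak within 5000 bp lay 2998 bp upstream, with 135.5 in replicate 1, 144.3 in replicate 2 and 278.5 at rank 104 in the joint list. The nearest protein-coding gene was cox-5B, for a cytochrome c oxidase subunit, whose 5′ end was 3 bp from the summit. The α-tubulin gene tba-1 stood between, with its 5′ end 1098 bp from the summit. In replicate 2 alone a weak summit lay 324 bp upstream of drsh-1, inside tba-1, with a signal of 21.9 at rank 14181.

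The gene pash-1 (WBGene00011908; chromosome I, 10598673 to 10606621, plus strand), which encodes the double-stranded RNA-binding partner of Drosha, had the fewest peaks. The joint list had 2 summits within 5000 bp, both upstream, with signals of 32.1 and 31.6 at ranks 20872 and 21593. The stronger lay 80 bp from the 5′ end of T22A3.6, the gene just upstream, and neither replicate had a peak at its summit. No summit of the 4 lists lay inside pash-1 or in its promoter window, although it has 2 annotated 5′ ends. Its joint summit density was 1.11 per 10 kb of gene and flanks, below the median of 2.44 over all genes.

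The gene dcr-1 (WBGene00000939; chromosome III, 8071967 to 8080281, minus strand) encodes Dicer, which also makes small interfering RNAs. It had no promoter summit in any list, and the nearest thresholded summit was 36308 bp from its 5′ end. Its strongest joint summit lay in a coding exon, 6899 bp from the 5′ end, with 23.2 in replicate 1, 34.7 in replicate 2 and 58.2 at rank 4671 in the joint list. In the joint list the summits upstream of dcr-1 began 4078 bp away, within K06H7.7.

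With weaker peaks included, more of the genes had a promoter summit, and so did more genes in general. In the joint list 6 of the 10 genes had one, where 35.0% of all protein-coding genes did. These were the 4 cofactors above with alg-1 and alg-2. The count was again 6 in replicate 1, where 37.9% of all genes had a summit, and 8 in replicate 2, where 34.9% did, with drsh-1 and ain-2 added. In both replicates at once 6 of the 10 genes had one, against 22.8% of all genes. Of the 10, 5 have more than 1 annotated 5′ end, as do 27.4% of protein-coding genes, which gives them more window for a summit to fall in.

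Gene bodies held no thresholded summit in any of the 10 genes, where 2.33% of all genes held one, so that this count is near the background. In the joint list 9 of 10 genes held a summit, pash-1 being the exception, against 43.0% of all genes. The replicates gave 9 of 10 against 48.1% and 8 of 10 against 43.0%. The 10 genes are long, however, with a median of 6051 bp against 2027 bp for all protein-coding genes, and no comparison at equal length was made. Within 5000 bp, 5 of 10 genes had a thresholded summit, where 16.4% of all genes did. All 10 had one in the joint list and in each replicate, but there 89.0%, 93.0% and 90.1% of all genes did too, so that these last counts are near the background.

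**Figure D3:**
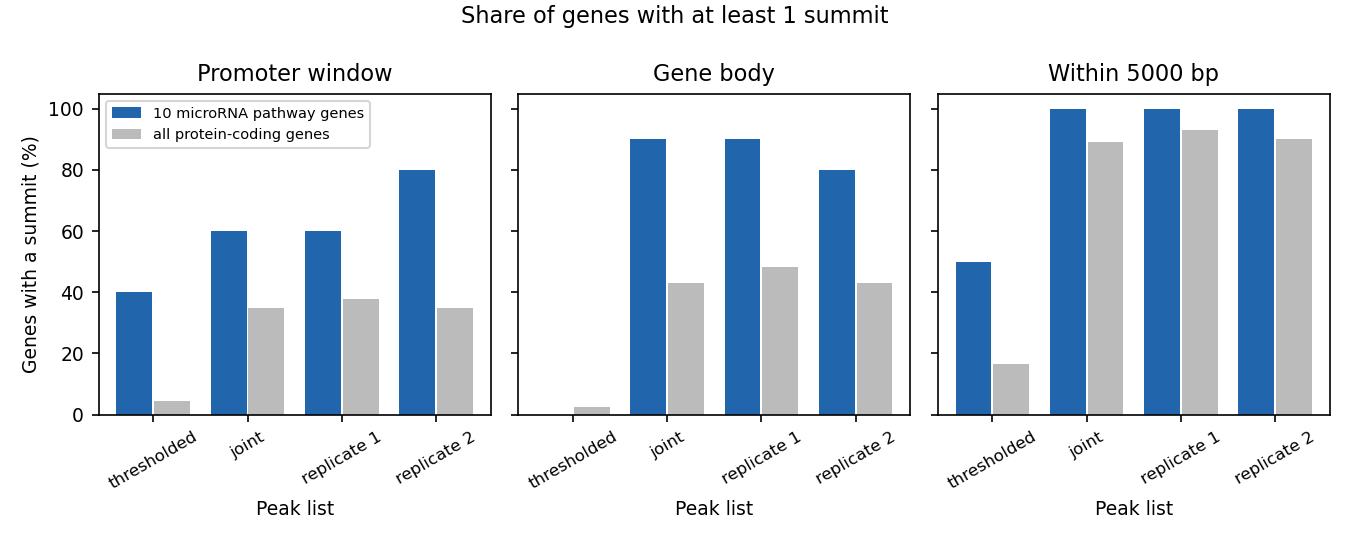
Percent of genes with at least 1 summit in the promoter window, in the gene body or within 5000 bp, for the 10 microRNA pathway genes (blue) and all 19973 protein-coding genes (grey), in each of the 4 lists. The promoter share of the 10 genes is 4 of 10 for thresholded peaks against 4.34%, and the shares within 5000 bp in the other lists lie near each other.

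Altogether 63 joint summits lay within 5000 bp of the 10 genes, of which 7 were thresholded. They were densest at cgh-1, with 7.19 per 10 kb, ain-1 with 5.96, vig-1 with 5.82 and nhl-2 with 5.19. Next came alg-1 with 4.08, alg-2 with 3.6, drsh-1 with 3.47, dcr-1 with 3.28 and ain-2 with 3.0. The 4 genes with a thresholded promoter summit thus also had the most joint summits per length, and 96.6% of protein-coding genes had a lower density than cgh-1. The thresholded peaks are among those counted.

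The thresholded list was chosen by the authors for agreement between these replicates, so the values of its peaks in each are a description and no check of them. All 7 thresholded peaks near these genes had a peak in both, and the ratio of replicate 2 to replicate 1 ran from 0.933 at the nearer ain-1 summit to 1.4 at the farther one. Over the 1647 thresholded summits found in both replicates the median ratio was 1.04, with 10th and 90th percentiles of 0.695 and 1.56. The median gap between the replicates' summits was 34 bp, and at the 7 peaks the gap was 17 to 57 bp except at the upstream peak of cgh-1. Of the 56 joint summits near these genes that were not thresholded, 21 lay in a peak of both replicates, 16 in replicate 1 alone, 15 in replicate 2 alone and 4 in neither. Both replicates held 37.5% of them, against 40.1% of all 24599 such joint summits. Among the weak ones, the summit 42 bp upstream of cgh-1 was in both, and of the 3 promoter summits of alg-1 only 1 had a peak in replicate 2.

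**Figure D4:**
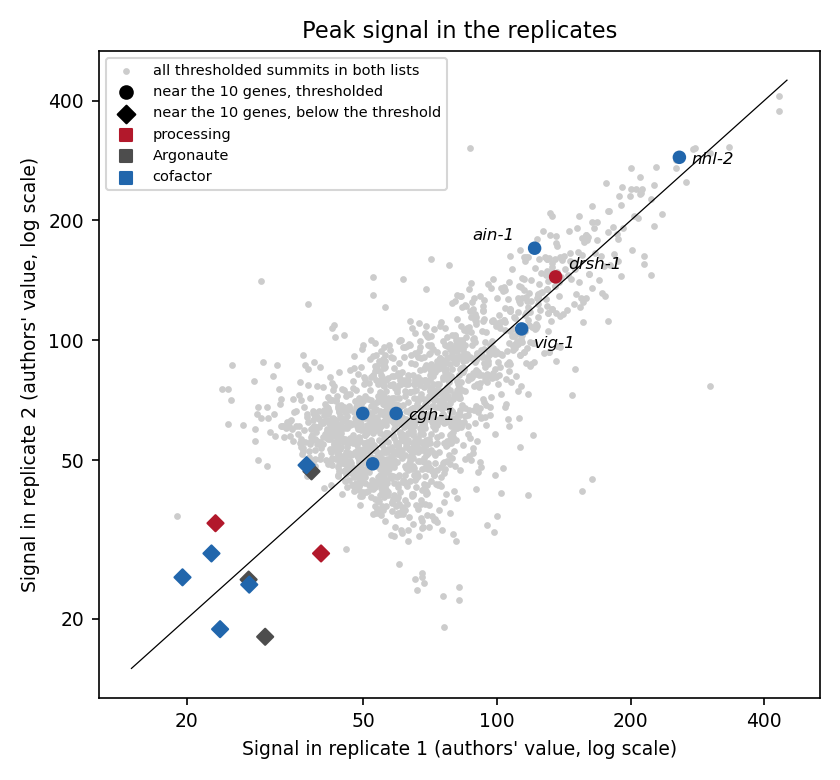
Signal in replicate 1 against signal in replicate 2, both on log axes, for the 1647 thresholded summits in both lists (grey), and for the thresholded (circles) and the strongest other summits (diamonds) near the 10 genes, with the line of equality. The 7 thresholded points lie close to the line, with nhl-2 the highest at 257.5 and 288.1. The lowest is the upstream cgh-1 peak in replicate 1 (49.8) and the nearer ain-1 summit in replicate 2 (48.96).

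Of the 7 thresholded peaks, 3 (at nhl-2, at the farther summit of ain-1 and near drsh-1) were narrower than the usual 420 bp, at 284, 207 and 162 bp. They were also the strongest of the 7. Of the 104 strongest thresholded peaks, 84 were narrower than 420 bp, and of all 1667 only 152 were, so that narrow peaks were common at this strength.

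Promoter summits of these genes shared letters around ACGCAG. This word was singled out after the sequences had been seen. It was found within 50 bp of the thresholded promoter summit of nhl-2, vig-1, cgh-1 and the nearer one of ain-1, which is 4 of 5 promoter summits and each of the 4 genes. The sequences printed above show it once at nhl-2, starting 13 bp from the summit, once at ain-1 and cgh-1, and on both strands at vig-1. The farther summit of ain-1, the summit near cox-5B and drsh-1, and the summit past the 3′ end of cgh-1 did not hold it. Over all 1667 thresholded summits 13.0% of such windows held ACGCAG, over all 26266 joint summits 4.11%. The share was 1.86% in windows 300 bp to either side of thresholded summits and 2.25% in windows centred 400 bp upstream of all protein-coding genes.

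The windows of nhl-2 and vig-1 shared the longest run. It was 12 bases, GCCGCTACGCAG, on the plus strand at nhl-2 and on the minus strand at vig-1, and it overlaps the word ACGCAG. The run was picked as the longest one shared by windows of these genes, so its presence in both was given. No other of the 1667 thresholded windows, or of the 26266 joint windows, held it. Of the 19973 windows upstream of all genes 1 did. That was the same stretch at vig-1, since these windows were centred 400 bp upstream, where the vig-1 summit lies. The longer word TACGCAG was at nhl-2, vig-1 and cgh-1, and at 2.1% of all thresholded summits, while the nearer window of ain-1 read GACGCAG. The word GACGCA, which an earlier description of these data had named, was at 1 of the 7 thresholded summits near these genes, the nearer one of ain-1, and at 12.4% of all thresholded summits. It overlaps ACGCAG. A match is a description of the letters and shows neither a binding site nor its absence. The G and C content of the 7 windows ran from 38.6% at the 3′ peak of cgh-1 to 58.4% near drsh-1, against a median of 46.5% over all thresholded summits.

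Other genes of the pathway gave 7 of 45 with a thresholded promoter summit, where 4.34% of all protein-coding genes had one. They were listed by function, with these data already described elsewhere, and the count is a description. Of 7 further Argonautes (alg-3, alg-4, alg-5, ergo-1, rde-1, csr-1 and prg-1) 0 had one. Of 6 genes that act with Dicer or in its small interfering RNA pathways (rde-4, drh-1, drh-3, eri-1, pir-1 and rrf-3) 0 had one. Of 6 genes of microRNA turnover and regulated processing 0 had one, and lin-28, an RNA-binding regulator of microRNA maturation, came nearest with a joint rank of 1938. Against the share of 4.34%, counts of 0 in groups of this size, and in the processing and Argonaute genes, are near the background.

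The 7 genes lay among interactors of the silencing complex and among deadenylation and decapping genes. Of 7 interactors 3 had a thresholded promoter summit, where 4.34% of all protein-coding genes did. The summit at puf-9, which encodes an RNA-binding protein of the Pumilio family, ranked 16, with a signal of 205.2 in replicate 1 and 240.4 in replicate 2. At ifet-1, which encodes a translational repressor that binds the cap-binding protein eIF4E, the summit ranked 94 but was shared with rps-1, a ribosomal protein gene. At hrpk-1, for an hnRNP K-like protein, the replicates differed, with 36.5 in replicate 1 and 91.7 in replicate 2, at a joint rank of 720.

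Of 19 deadenylation and decapping genes 4 had a thresholded promoter summit, where 4.34% of all protein-coding genes did. In the joint list 15 had one, where 35.0% of all genes did. The CCR4-NOT deadenylase subunit genes ntl-2 and ntl-11 ranked 115 and 319. Their signals in replicates 1 and 2 were 128.7 and 146.8 at ntl-2, and 104.5 and 79.8 at ntl-11. The poly(A)-binding protein gene pab-2 and panl-3, for a subunit of the PAN deadenylase, ranked 1211 and 1068. The other deadenylation and decapping genes, among them ccf-1, ccr-4, dcap-1 and dcap-2, had no thresholded promoter summit. Of these named genes, ccf-1, ccr-4 and dcap-1 had a weaker one in the joint list. Of the 45 genes 25 had a joint promoter summit, where 35.0% of all genes did.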

How the data were processed

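SOMI-1-eGFP ChIP-seq peak lists in narrowPeak form on ce11 were used, from 2 biological replicates of 1 group, per the labels. The notes deposited beside the peaks say that the authors made a list from each replicate and from both together, each with 1 control alignment, and derived the thresholded list from them by an irreproducible discovery rate procedure. The control was not analysed here. For the aligner, peak caller, settings and depth, nothing is stated (not given in the sources used here), so no counting interval is given. Peak signal values were deposited by the authors with no unit named. The −log10 q-value column was deposited by the authors and not used in any result.

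Genes came from Ensembl release 115 of WBcel235, the assembly ce11 names, and bases from its RefSeq copy. A gene body ran from first to last annotated base. Replicate values are those of the strongest replicate peak holding the joint summit. Density is joint summits per length of the gene plus 5000 bp on both sides. Words were searched on both strands within 50 bp of a summit. Of the pathway symbols 1, ntl-1, matched no gene under that name, and 45 genes matched. The calls were tested on simulated summits. Python 3.11.15, numpy 2.4.6 and pandas 2.3.3 were used. The members, lists and named genes were chosen with earlier results of these data known: all 10 members, genes sharing their promoter peaks, and every other pathway gene with a thresholded promoter summit. Other genes named at a summit are those nearest to it.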

Additional observations from a re-analysis of the deposited data

How the results depend on the processing

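The window decided how many genes counted. With 500 bp upstream to 100 bp downstream, 1 of 10 genes (1 of 5 cofactors, vig-1) had a thresholded promoter summit, where 3.04% of all genes did, and 3 had a joint one, where 23.5% did. With 2000 bp upstream to 500 bp downstream 4 of 10 had a thresholded one (6.14% of all genes) and 8 a joint one (51.2%). When each summit was given to the protein-coding gene of the nearest 5′ end, 3 did (6.55%), with nhl-2 lost to tag-340. There cgh-1 counted through the peak past its 3′ end (2609 bp from its 5′ end), since its upstream summit was nearer to C07H6.9. Under any overlap of peak and window 4 did (4.82%), with 8 in the joint list (41.2%), and with only thresholded peaks above the list's median signal 3 did (2.35%). With the unthresholded list, 2 of 2 Argonaute genes had a promoter summit (35.0% of all genes), 9 of 10 genes a summit in the body (43.0%) and 10 within 5000 bp (89.0%, so near the background). The processing genes stayed at 0 of 3 under all these settings of the thresholded count, but in the joint list drsh-1 and ain-2 gained a promoter summit under the wide window and under any overlap.

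Leaving out a replicate, with as many of the strongest peaks of the other, gave 4 of 10 genes without replicate 1 (4.5% of all genes) and without replicate 2 (4.13%), and these were nhl-2, ain-1, vig-1 and cgh-1. For gene bodies the range was 0 to 1, with cgh-1 counted from replicate 2 alone, where 2.46% of all genes were without replicate 1 and 2.64% without replicate 2. With all peaks of a single replicate the promoter count was 6 (37.9%) to 8 (34.9%). No paired analysis was possible because there was 1 group. The presence of GACGCA stayed at 1 of 7 summits within 25 bp and within 100 bp of them. ChIP-seq in whole animals with 1 tagged strain, unknown depth and an unanalysed control limit what absence of a peak can mean.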
